A study of Homo sapiens with 6 samples.

Results

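Lecticans and small leucine-rich proteoglycans are proteins of the extracellular matrix that carry glycosaminoglycan chains, and 8 genes of these families were described across the 6 arrays of the study. The members were BCAN, NCAN, VCAN and ACAN of the lecticans and BGN, DCN, LUM and FMOD of the small leucine-rich family. They were found by matching the RefSeq accession in each probe set identifier to a gene symbol, which gave 9 probe sets of 1259 and 8 genes of 927. BCAN had 2 probe sets and every other member had 1.

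Both populations came from RKO, an established human colon carcinoma line. F3 (RKO C2 F3, 3 arrays) was obtained from C2 by fluorescence-activated sorting of cells for low u-PAR, the urokinase receptor. C2 (RKO C2, 3 arrays) is the clonal population it came from, so both go back to 1 clone, and neither is described as treated. The labels describe F3 both as a clonal population and as a sorted population. The study asked which glycosylation enzyme is deficient in cells whose u-PAR does not mature, and the members here are glycosylated proteins, not glycosylation enzymes.

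Lecticans are large chondroitin sulfate proteoglycans that bind hyaluronan at one end and other matrix glycoproteins through a lectin domain at the other. Small leucine-rich proteoglycans have a compact core of leucine-rich repeats, carry chondroitin, dermatan or keratan sulfate chains, and bind collagen fibrils and growth factors. In the colon both families are known mainly from the stroma, where fibroblasts make decorin, lumican and versican.

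No member differed between F3 and C2 at an adjusted p under 0.05 in limma, a linear model with variances shared across probe sets. Over the whole table, 1 of 1259 probe sets (0.0794%) passed. At an unadjusted limma p under 0.05, 1 of the 9 member probe sets passed, the brighter one of BCAN, against 68 (5.4%) of all probe sets. With the replicate number as a block in the fit, 2 of the 9 did, the brighter BCAN probe set and BGN, against 101 (8.02%) of all. The 3 arrays of one population lay wholly above or below the other 3 for 3 of the 9 member probe sets, against 130 (10.3%) of all. F3 lay wholly above C2 for 2 of them (BGN and NCAN), against 3.81% of all probe sets, and wholly below it for 1 (BCAN), against 6.51%. With 9 probe sets these shares rest on single members.

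Array facts bear on all members alike. The median log2 expression was between 5.48 and 5.51 on the 6 arrays, and the median SD within a population was 0.059 for the member probe sets against 0.083 for all. The median F3 minus C2 change was -0.013 over the 9 member probe sets and -0.0064 over all 1259. The files hold no detection call, so no member could be called absent. With 3 arrays a population, their number sets the precision.

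**Figure D1:**
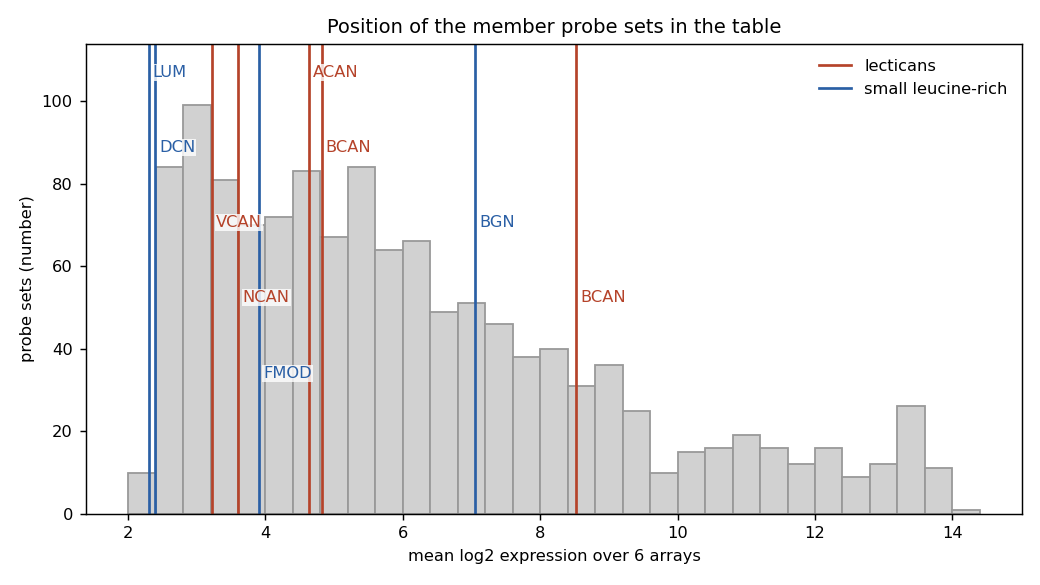
Mean log2 expression over 6 arrays (x axis) of all 1259 probe sets (grey bars, number of probe sets on the y axis), with the 9 member probe sets as vertical lines, lecticans in red and small leucine-rich members in blue. Only the brighter BCAN probe set (8.52) and BGN (7.05) lie above the median of all probe sets (5.50).

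The levels of the members spread from the dimmest end of the table to its upper part. The brighter BCAN probe set had a mean log2 expression of 8.52, with 242 of 1259 probe sets above it, and BGN had 7.05, with 394 above it. The dimmer BCAN probe set (4.82) and ACAN (4.64) lay below the median of 5.50. FMOD (3.91), NCAN (3.61) and VCAN (3.22) followed. DCN (2.39) and LUM (2.30), encoding decorin and lumican, stood near the floor of the table, with 1249 and 1254 probe sets above them. Probes differ in how strongly they bind, so this is an order of signals on these arrays and not of transcript amounts. The distribution of all levels with the member lines shows that spread.

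BCAN encodes brevican, a lectican of brain matrix that is made both as a secreted protein and in a form held in the membrane by a GPI anchor. Its brighter probe set, NM_021948.3_psr1_at, had log2 expression of 8.39, 8.39 and 8.33 on F3 arrays 1, 2 and 3, against 8.74, 8.66 and 8.61 on C2 arrays 1, 2 and 3. Every F3 array was below every C2 array. The means were 8.37 ± 0.03 in F3 and 8.67 ± 0.07 in C2 (SD, n = 3 each). The log2 change was -0.30 (SE 0.06, 95% interval -0.43 to -0.17), or 1.23-fold lower in F3, with a limma adjusted p of 0.19. The unadjusted limma p was 0.000591, the fourth smallest of the 1259, and the size of the change ranked 12 among them. The median absolute change over all probe sets was 0.047 and the 95th percentile was 0.17. The 3 pairs of same-numbered arrays gave -0.35, -0.28 and -0.28, all in 1 direction. That was so for 4 of the 9 member probe sets and for 378 (30%) of all.

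The other BCAN probe set, NM_198427.1_psr1_at, did not share this difference. It had log2 expression of 4.87, 4.91 and 4.81 on the F3 arrays, against 4.73, 4.77 and 4.82 on the C2 arrays. The populations overlapped, since F3 replicate 3 lay below C2 replicate 3. The log2 change was 0.09 (SE 0.05, 95% interval -0.04 to 0.21, limma adjusted p = 0.97). The brighter minus the dimmer probe set was 3.53, 3.47 and 3.52 on the F3 arrays, against 4.01, 3.89 and 3.79 on the C2 arrays, with no overlap. Its mean was 3.51 ± 0.03 in F3 and 3.90 ± 0.11 in C2 (SD, n = 3 each), a difference of -0.39. An exact two-sided permutation test over the arrays gave p = 0.1, which is the smallest that 3 arrays against 3 allow, so no difference could have passed 0.05. The identifiers name separate BCAN transcripts, but which transcripts the probes bind was not determined, and the mean of both probe sets differed by -0.11 (limma adjusted p = 0.97).

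**Figure D2:**
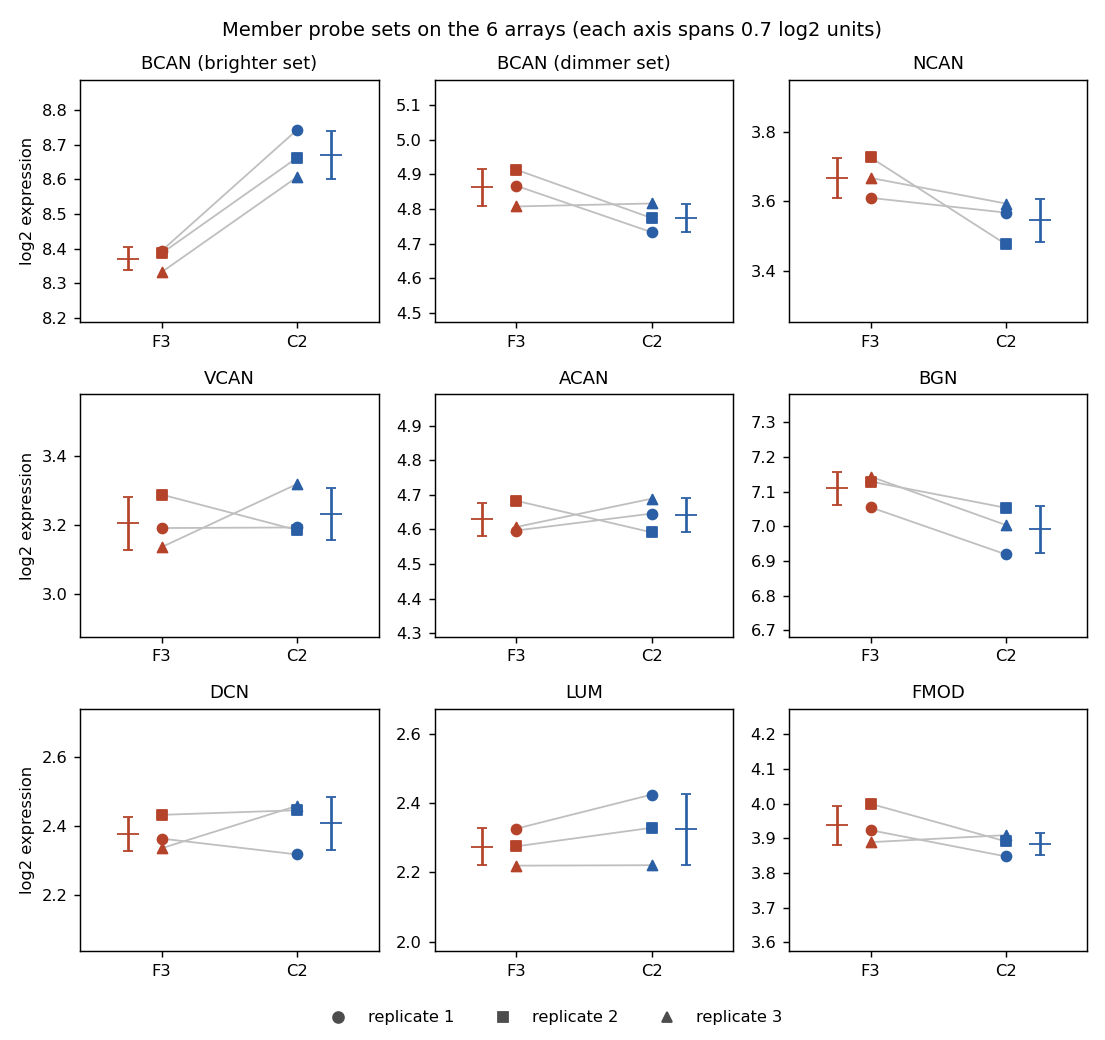
Log2 expression (y axes, each spanning the same width) of the 9 member probe sets on the 3 F3 arrays (red, left) and the 3 C2 arrays (blue, right). Symbols mark replicates 1 to 3, grey lines join arrays of the same number, and the bars beside them are mean ± SD (n = 3). The brighter BCAN probe set is lower on all F3 arrays, while BGN and NCAN lie above C2 on all F3 arrays and the other 6 overlap.

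The RefSeq stretch just upstream of BCAN is printed with that of BGN, since these are the only members with a signal above the median of the table. The sequences cover the 250 bases before the annotated start (GRCh38.p14, plus strand in both, chr1:156641867-156642116 for BCAN and chrX:153494730-153494979 for BGN). Capitals mark GGGCGG or its reverse complement, the GC box bound by Sp1-type factors. Overlapping matches were counted.
BCAN: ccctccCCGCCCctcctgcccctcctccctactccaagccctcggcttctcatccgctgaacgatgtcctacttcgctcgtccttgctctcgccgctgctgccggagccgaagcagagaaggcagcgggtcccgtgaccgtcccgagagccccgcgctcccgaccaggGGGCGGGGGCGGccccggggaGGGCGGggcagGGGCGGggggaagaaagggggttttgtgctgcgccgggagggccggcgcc
BGN: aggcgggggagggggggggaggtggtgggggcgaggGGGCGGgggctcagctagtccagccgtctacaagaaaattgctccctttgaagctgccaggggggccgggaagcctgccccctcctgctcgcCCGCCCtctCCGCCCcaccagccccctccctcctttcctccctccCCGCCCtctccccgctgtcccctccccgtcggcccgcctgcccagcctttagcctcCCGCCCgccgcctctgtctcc
Each window held 5 GC boxes and was 74.0% G or C. Of 27305 RefSeq windows of this length, 42.3% held at least 1 GC box on either strand, and the median G or C content was 58.0%. The table of promoters matched 5 of the 8 members. The windows of the dimmer members ACAN, FMOD and VCAN held 6, 2 and 1 GC boxes, so ACAN had the most boxes and only the fourth brightest probe set. TATAAA was in the FMOD window only among these 5, and in 11.1% of all windows. These are descriptions of letters, and no binding or promoter activity was measured.

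Neurocan, the other brain lectican, had a small positive difference. NCAN had log2 expression of 3.61, 3.73 and 3.67 on the F3 arrays, against 3.57, 3.48 and 3.59 on the C2 arrays. All F3 arrays were above all C2 arrays, F3 replicate 1 by the least. The log2 change was 0.12 (SE 0.06, 95% interval -0.01 to 0.26, limma adjusted p = 0.97), and the pairs gave 0.04, 0.25 and 0.07. NCAN was thus positive where the brighter BCAN probe set was negative.

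VCAN and ACAN, the lecticans of loose connective tissue and of cartilage, showed no separation. VCAN, encoding versican, had log2 expression of 3.19, 3.29 and 3.14 on the F3 arrays, against 3.19, 3.19 and 3.32 on the C2 arrays. The populations overlapped, and the pairs gave -0.0017, 0.10 and -0.18. The log2 change was -0.03 (SE 0.06, 95% interval -0.17 to 0.12). ACAN, encoding aggrecan, had 4.60, 4.68 and 4.61 on the F3 arrays, against 4.65, 4.59 and 4.69 on the C2 arrays, which also overlapped. Its log2 change was -0.01 (SE 0.05, 95% interval -0.14 to 0.11). The sign of both turned when some single arrays were left out, and that of ACAN also with each array centred on its median.

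BGN encodes biglycan, which carries chondroitin or dermatan sulfate chains and in soluble form is a ligand of Toll-like receptors. It had log2 expression of 7.05, 7.13 and 7.14 on the F3 arrays, against 6.92, 7.05 and 7.003 on the C2 arrays. The populations were barely separate, with the lowest F3 array at 7.055 and the highest C2 array at 7.053. The means were 7.11 ± 0.05 in F3 and 6.99 ± 0.07 in C2 (SD, n = 3 each). The log2 change was 0.12 (SE 0.06, 95% interval -0.01 to 0.25), or 1.08-fold, with a limma adjusted p of 0.97. The pairs gave 0.14, 0.08 and 0.14, all positive.

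DCN encodes decorin, which binds collagen and growth factors and can restrain the receptors EGFR and MET. It had log2 expression of 2.36, 2.43 and 2.34 on the F3 arrays, against 2.32, 2.45 and 2.46 on the C2 arrays. The populations overlapped, and the log2 change was -0.03 (SE 0.06, 95% interval -0.17 to 0.11). LUM encodes lumican, a keratan sulfate proteoglycan that orders collagen fibrils, and it lies next to DCN on chromosome 12 in the RefSeq annotation. It had 2.33, 2.28 and 2.22 on the F3 arrays, against 2.42, 2.33 and 2.22 on the C2 arrays. These overlapped too, although each pair was below 0 (-0.10, -0.05 and -0.0013), and the log2 change was -0.05 (SE 0.07, 95% interval -0.20 to 0.10). RMA, the averaging method behind these values, compresses differences of dim probe sets, so these intervals bound the signal and not the transcripts.

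FMOD encodes fibromodulin, the close relative of lumican that also binds collagen and carries keratan sulfate. It had log2 expression of 3.92, 3.9997 and 3.89 on the F3 arrays, against 3.85, 3.89 and 3.91 on the C2 arrays. The populations overlapped at F3 replicate 3, and the log2 change was 0.05 (SE 0.05, 95% interval -0.07 to 0.18). Apart from the brighter BCAN probe set, the 95% intervals of the members, as F3 over C2, reached no lower than 0.869 (LUM) and no higher than 1.19 (NCAN). The interval of the brighter BCAN probe set ran from 0.743 to 0.888.

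**Figure D3:**
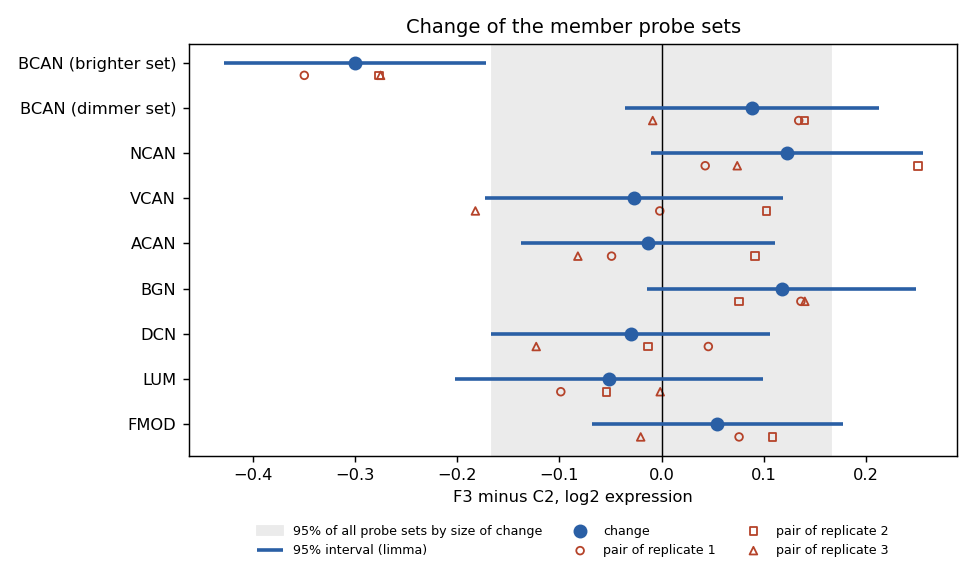
F3 minus C2 change on the log2 scale (x axis) of the 9 member probe sets, with limma's 95% interval (blue) and the difference in each pair of same-numbered arrays (open red symbols). The grey band holds 95% of all 1259 probe sets by size of change (up to 0.17), and the brighter BCAN probe set, at -0.30, is the only member whose change lies outside it.

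The probe sets of other genes whose pattern over the 6 arrays was most like the brighter BCAN probe set were those of CCR10 (r = 0.955), FUT4 (r = 0.944) and GMDS (r = 0.941). CCR10 is a chemokine receptor, FUT4 a fucosyltransferase and GMDS makes the precursor of GDP-fucose. Their log2 changes were -0.21 for CCR10, -0.08 for FUT4 and -0.17 for GMDS, and none passed in limma. These are the 3 highest Pearson correlations among the other genes' probe sets over 6 arrays that share 2 populations and 3 replicate numbers, and are given as a description.

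The partners and makers of the members were looked at as 6 lists of genes, 1 probe set a gene, of which none had a member that passed in limma. Over all genes, 1 of 927 (0.108%) passed, the median log2 change was -0.01, and 531 of 927 changes were negative. At an unadjusted limma p under 0.05, 54 genes (5.83%) passed in the whole table, and HAS2, SPOCK2 and MET did among the 67 genes of these lists. With the replicate number as a block, 81 genes (8.74%) of the whole table and 8 of the 67 did, adding IDS, TGFB1, CHST15, CHSY1 and BMP4, and none of the 67 had a blocked adjusted p under 0.05. Of these 5, CHSY1, a chondroitin polymerase, and TGFB1 are named after their values were seen, with log2 changes of -0.16 and 0.19.

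Of the lectican partners, 4 of 16 listed genes were measured, namely the hyaluronan synthases HAS1, HAS2 and HAS3 and the hyaluronan receptor CD44. HAS2 had log2 expression of 5.41, 4.72 and 5.44 on the F3 arrays, against 4.52, 4.51 and 4.62 on the C2 arrays. F3 replicate 2 lay near C2, and the other F3 arrays lay well above it. The log2 change of HAS2 was 0.64 (SE 0.17, limma adjusted p = 0.73), while HAS1 was at 0.08, CD44 at 0.13 and HAS3 at -0.06. Without F3 replicate 2 the HAS2 change was 0.88 and passed (limma adjusted p = 0.0038), and it did not pass with any other single array left out. The link proteins and tenascins on this list were not analysed here.

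Of other extracellular proteoglycans, 12 of 30 listed genes were measured, 0 rose, 0 fell and 12 did not pass, with a median log2 change of 0.02. SPOCK2, a testican of brain matrix, had log2 expression of 4.11, 4.20 and 4.17 on the F3 arrays, against 3.89, 4.05 and 3.995 on the C2 arrays. These did not overlap, and the log2 change was 0.18 (SE 0.06, limma adjusted p = 0.84). ESM1, the dermatan sulfate proteoglycan endocan, was at 0.13 and PRG3, a relative of eosinophil major basic protein, at 0.12. Both overlapped between populations, and ESM1 was dim, with a mean log2 expression of 2.92.

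Enzymes that build chondroitin and dermatan sulfate, the chains of lecticans, decorin and biglycan, were measured for 20 of 22 listed genes. None passed, 16 changes were negative and the median was -0.03, against 531 negative of 927 and a median of -0.01 over all genes. The negative sign was not even over the pairs of same-numbered arrays, and only CHST11, CHST15 and CHSY1 were negative in all 3. Pairs 1, 2 and 3 gave 0.18, -0.45 and 0.10 for B3GAT3 and 0.17, -0.38 and 0.19 for CHPF. In both genes C2 replicate 2 was the highest array. The smallest p-values belonged to the sulfotransferases CHST11 (-0.12), CHST15 (-0.19) and UST (-0.15). CHST11 was dim, with a mean log2 expression of 3.18, against 8.18 for CHST15 and 6.19 for UST. With single arrays left out CHST15 ran from -0.30 to -0.08 and UST from -0.24 to -0.04. UST had 6.10, 6.15 and 6.09 on the F3 arrays, against 6.08, 6.48 and 6.22 on the C2 arrays, so that C2 replicate 2 stood above the rest. For keratan sulfate, the chain of lumican and fibromodulin, 8 of 8 listed genes were measured, with a median of -0.0043, none past the threshold, and CHST1 at -0.06, CHST2 at 0.06 and B4GALT1 at -0.07.

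Of proteases and matrix breakdown enzymes, 9 of 21 listed genes were measured and none passed, with a median log2 change of -0.02. BMP1 (-0.08) was the only protease among them, and the others were hyaluronidases and lysosomal enzymes. The ADAMTS and MMP proteases on this list were not analysed here. IDS, the lysosomal iduronate sulfatase of dermatan and heparan sulfate breakdown, was at -0.28 (SE 0.13) by its brighter probe set. The other IDS probe set, nearly as bright (mean log2 expression 7.31 against 7.33), was at -0.02 (SE 0.05) and did not share this difference. The brighter one ran from -0.42 to -0.15 with single arrays left out. IDUA, the iduronidase of the same path, was at 0.09 and the hyaluronidase HYAL1 at 0.11 (0.05 to 0.20 with single arrays left out). Of the signalling partners of small leucine-rich proteoglycans, 14 of 22 were measured and none passed, with a median of -0.05. MET, the hepatocyte growth factor receptor, had 8.04, 8.32 and 8.22 on the F3 arrays, against 8.29, 8.43 and 8.53 on the C2 arrays. The populations overlapped, and MET differed by -0.23 on the log2 scale (SE 0.09, limma adjusted p = 0.84). BMP4, a ligand of the TGF-beta family, was at 0.16 (0.10 to 0.23 with single arrays left out) and TGFB3 at -0.21 (-0.28 to -0.07).

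**Figure D4:**
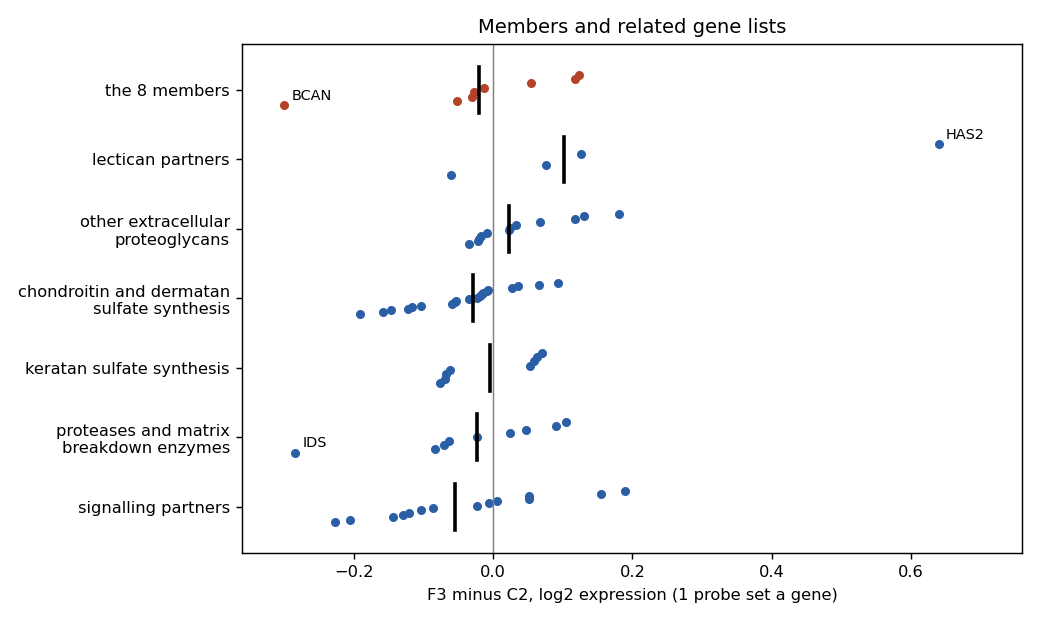
F3 minus C2 change on the log2 scale (x axis) of the 8 members (red, brightest probe set of each gene) and of the genes in 6 related lists (blue), with the median of each as a black bar. BCAN (-0.30) lies apart from the other members, HAS2 (0.64) from the other lectican partners and IDS (-0.28, brighter probe set) from the other breakdown enzymes, and none of these passed the threshold with all arrays. The other IDS probe set, nearly as bright and not shown, was at -0.02. The dimmer BCAN probe set, also not shown, was at 0.09.

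Markers of cell types were sparse in the table. Of the fibroblast and stroma list 2 of 12 genes were measured, PDGFRA at 3.51 ± 0.05 in F3 and 3.51 ± 0.16 in C2, and PDGFRB at 4.10 ± 0.06 in F3 and 4.19 ± 0.14 in C2 (log2, SD, n = 3 each). The summed linear signal of both ran from 27.7 to 29.7 in F3 and from 27.6 to 31.0 in C2. Of the colon epithelial list 3 of 11 were measured, MUC1, MUC2 and LGALS4, which summed to 191 to 209 in F3 and 197 to 201 in C2. Of the endothelial list 4 of 7 were measured, and their sum did not overlap, at 76.2 to 80.5 in F3 and 82.1 to 83.8 in C2. Among its genes ICAM2 was at -0.20 on the log2 scale (limma adjusted p = 0.84) and overlapped between populations, and VCAM1, PECAM1 and SELE were at -0.05, -0.02 and 0.02. None of the 4 endothelial genes alone kept the populations apart. Of all single probe sets 10.3% did not overlap, and no such share was worked out for sums of genes. The part of these signals in the BCAN difference was not tested. The leukocyte sum (5 of 9 genes) ran from 87.3 to 90.2 in F3 and from 85.5 to 88.6 in C2. CD72 (0.23, limma adjusted p = 0.73) and CD22 (0.09) of that list lay wholly higher on the F3 arrays, and these marker genes were singled out after their values were seen. The neural and glial sum (2 of 6 genes, MAG and NCAM1) ran from 77.3 to 91.1 in F3 and from 78.5 to 81.4 in C2.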

How the data were processed

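Total RNA of RKO cells, 1 sample for each of 6 arrays, was hybridised as biotin-labelled cRNA, per the labels' protocols. The deposited values are log2 expression, 1 per probe set and array, made with RMA per the submitters' processing notes. Not given in the sources used here are its version, which arrays were normalized together, the probe sequences and the genome build. RMA equalises the arrays and shrinks changes of dim probe sets.

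Of 1259 probe sets, 1043 matched 1 symbol in the RefSeq table of GRCh38.p14 and none matched several. The other 216 stayed in the fit unnamed, and whether any of them belongs to a member was not determined. F3 was compared with C2 with lmFit and eBayes of limma 3.58.1 (R 4.3.3). Tests were two-sided, p-values were adjusted by Benjamini-Hochberg across the whole table, and an adjusted p under 0.05 passed. Changes are F3 minus C2. For a list, a gene stands by its probe set with the highest mean. The script was tested on simulated data.

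The replicate numbers are shared between populations, and the labels of same-numbered arrays also carry 1 shared suffix per number, whose meaning they do not state. Arrays of 1 number were treated as pairs. Departures from the population mean correlated between arrays of 1 number at r = 0.52, 0.18 and 0.26, and between arrays of unlike number at -0.38 to 0.15. The value for replicate 2 was thus close to that of an unmatched pair. Departures from a mean of 3 arrays sum to 0, so these correlations are not independent. The main fit leaves the pairing out. Nothing in the labels says that replicate arrays are separate cultures, and p-values then measure only the spread between these arrays, which may be technical.

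The members and lists were chosen with earlier results of these data known. Named were all member probe sets, in each of the 6 lists of partners and makers the 3 genes with the smallest p, and the 3 probe sets most correlated with the member of smallest p, which was also the brightest. Alternatives were a replicate block, median centring, quantile normalization, a filter on probe sets under 4, array weights, robust eBayes with an intensity trend, a threshold of 0.1, an ordinary two-sample test, single arrays left out and averaging the BCAN probe sets.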

Additional observations from a re-analysis of the deposited data

How the results depend on the processing

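The count of member probe sets past the threshold was 0 in limma and in all alternatives run, with 1 at an unadjusted p under 0.05 in limma, 1 in the ordinary two-sample test and 2 with the replicate block (BCAN and BGN, against 8.02% of all probe sets). Over all probe sets the count was 1. It was 2 with the replicate block, 2 at an adjusted p under 0.1 and 0 in the ordinary two-sample test (67 at an unadjusted p under 0.05). With single arrays left out it was 0 to 2, at 0 without F3 replicate 1, C2 replicate 2 or C2 replicate 3 and at 2 without F3 replicate 2. The block changed no call among the members. The brighter BCAN probe set stayed between -0.33 and -0.26 in its 12 alternatives (limma adjusted p from 0.17 to 0.74). Of these, the replicate block, the dim filter and robust eBayes with an intensity trend cannot move the change, and left it at -0.30. Averaging both BCAN probe sets, not among the 12, gave -0.11 (limma adjusted p = 0.97). The difference between the BCAN probe sets stayed between -0.44 and -0.33 with single arrays left out. The direction turned for members near 0, and the cause was not tested. ACAN was at 0.0022 with median centring and from -0.040 to 0.010 with single arrays left out, VCAN from -0.068 to 0.016 with single arrays left out, and DCN at 0.016 with quantile normalization. With single arrays left out LUM ran from -0.10 to -0.0012, DCN from -0.07 to -0.0045, FMOD from 0.02 to 0.08, NCAN from 0.09 to 0.15, BGN from 0.08 to 0.15 and the dimmer BCAN probe set from 0.06 to 0.12. The filter on dim probe sets removed NCAN, VCAN, DCN, LUM and FMOD, so they have no value there.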
